A study of Mus musculus with 2 samples.

Results

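The genes described here are 10 components of bone morphogenetic protein (BMP) signalling: the ligands Bmp2, Bmp4, Bmp5, Bmp7 and Gdf5, the receptors Bmpr1a, Bmpr1b and Bmpr2, and the secreted antagonists Grem1 and Nog. They were taken by symbol from the authors' deposited table of 13916 protein-coding genes, which holds 9 of the 10. Bmp5 has no row and counts as not detected. BMPs are secreted dimers that bring type I and type II receptor kinases together at the cell surface; the type II receptor then phosphorylates the type I receptor, which phosphorylates Smad proteins that enter the nucleus with Smad4 and switch on genes such as the Id and Msx families. Antagonists such as gremlin and noggin bind the ligand outside the cell and keep it from the receptor. In the limb bud these signals take part in patterning of the mesenchyme, in condensation and maturation of cartilage, in the loss of tissue between digits and, through Gdf5, in the formation of joints.

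Distal and proximal areas of mouse limb-mesenchymal organoids were compared. The organoids were grown from embryonic limb mesenchymal cells of Slc:ICR mice for 48 h in medium with Fgf8b and Wnt3a, so both sides had the same genotype, medium and time. There were 5 organoids from 4 surrogate cultures, frozen on day 2. In photo-isolation chemistry, primers that carry a light-sensitive cage are used for reverse transcription inside a tissue section, and ultraviolet light (365 nm for 3 min here) releases the cDNA of a chosen area. The distal group was 1 library of 5 barcoded areas, here called regions, and the proximal group was 1 library of 5 others. Side and library are the same split, and their effects cannot be told apart. The labels do not tie a region to an organoid. Some regions can share a culture, while p-values over regions treat them as independent. Such p-values can be too small, or too large where a culture gave regions to both sides. The age of the embryos is not given in the sources used here.

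The depth of the libraries differed between the sides. Size factors, which state how deeply a region was read relative to the others, were 0.329 to 0.832 for the distal regions and 1.502 to 2.42 for the proximal regions. A distal region thus held about 46991 to 118978 counts, and a proximal region about 214774 to 345649. A total of 3 counts over a side corresponds to a mean of 1.02 normalized counts in distal and 0.311 in proximal. Regions are numbered here by depth within a side, from 1 for the deepest to 5 for the shallowest, and not by the authors' numbering. The labelled cell type was checked against its markers. The authors' deposited table holds 11 of 11 limb mesenchyme markers, with Prrx1 at a mean of 159 normalized counts, Pdgfra at 99.2 and Twist1 at 74.0. Others of the list were low, with Tbx4 at 5.68, Twist2 at 3.93 and Pitx1 at 1.08, the last with 0 counts in distal. The sides differed at a deposited adjusted p under 0.05 for Pdgfra and Tbx5, higher in proximal, and for Msx1, higher in distal. Surface ectoderm markers had a row for 6 of 14, with 7 counts in distal and 15 in proximal over all 6. At the depth of each side this was a summed mean of 2.49 normalized counts in distal and 1.58 in proximal. Krt14, Cdh1, Trp63 and Perp were at 0 in distal and had 1 to 3 counts in proximal, while Dlx3 had 5 counts on each side, a mean of 1.81 in distal and 0.519 in proximal, and Epcam 2 and 4 counts.

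In the authors' deposited table no BMP component had an adjusted p under 0.05 for a difference between the sides. Among all 13916 genes of that table, 136 had one (0.977%), of which 55 (0.395%) had the higher level in distal and 81 (0.582%) in proximal; of the 3757 genes with a mean of 10 or more, 3.03% had one. The test in that table is a negative binomial fit of the DESeq2 kind. At an unadjusted p under 0.05 the authors' deposited table holds 3 of the 9 components, Bmp2 with the higher value in distal and Gdf5 and Grem1 with the higher value in proximal, against 6.07% of all genes (2.56% with the higher value in distal and 3.51% in proximal) and 12% of the genes with a mean of 10 or more. Of the components, Gdf5 had the smallest adjusted p of the authors' deposited table, 0.460. Log2 changes of distal over proximal in the authors' deposited table were positive for 3 components and negative for 6, with a median of -0.12, against 0.07 over all genes, 0.0047 over genes with a mean of 10 or more and -0.02 over genes with a mean above the median; the median component had a mean above that of 83.9% of genes. Of the 7 components whose counts in single regions could be recovered, none had sides that did not overlap. The share of all genes without overlap is not known, because counts in single regions were recovered for listed genes only. In bulk regions, fewer cells of a type and less RNA per cell cannot be told apart.

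**Figure D1:**
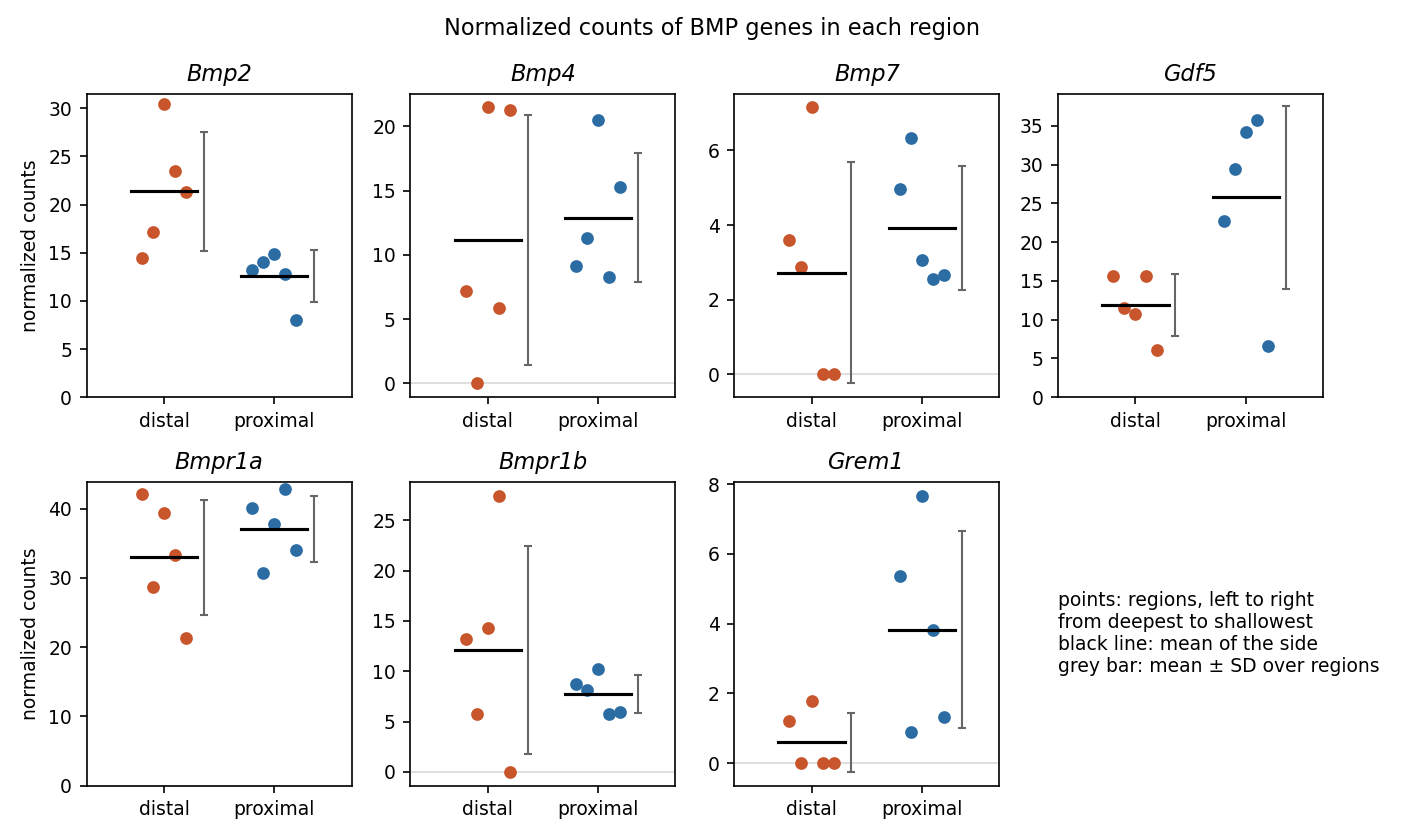
Normalized counts (vertical axis, linear, drawn from 0 or just below) of the 7 components with recovered counts in each of the 5 distal and 5 proximal regions; points are regions from deepest to shallowest, black lines are means and grey bars mean ± SD over regions. For Bmp2, 4 of 5 distal points lie above every proximal point, and for Gdf5, 4 of 5 proximal points lie above every distal point.

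Among the ligands, Bmp2 and Gdf5 had opposite signs. Bmp2, a ligand that drives differentiation of cartilage and bone, lies at chr2:133552159-133562885 on the plus strand (build GRCm38). Its normalized counts were 14.4, 17.2, 30.4, 23.5 and 21.3 in distal regions 1 to 5 and 13.2, 14.02, 14.8, 12.8 and 7.99 in proximal regions 1 to 5. Every distal region but the deepest lay above all 5 proximal regions, and distal region 1 lay just below the highest proximal region. The means were 21.4 ± 6.17 in distal and 12.6 ± 2.68 in proximal (SD, n = 5 regions), from 60 and 124 counts. In the authors' deposited table the log2 change of Bmp2 was 0.71 ± 0.30 (SE), with a 95% interval of 0.13 to 1.30, an unadjusted p of 0.0173 and an adjusted p of 0.544, so the difference did not pass the test. The ratio of the pooled counts, scaled by size factors, was 1.60 in distal over proximal, with an exact 95% interval of 1.15 to 2.19 that covers counting error only.

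Gdf5, a BMP family ligand that marks the interzone where joints form, lies at chr2:155941023-155945367 on the minus strand (GRCm38). It had 15.6, 11.5, 10.7, 15.7 and 6.09 normalized counts in distal regions 1 to 5 and 22.8, 29.4, 34.3, 35.7 and 6.66 in proximal regions 1 to 5. The first 4 proximal regions were all above the highest distal region, and proximal region 5 was lower than every distal region but distal region 5. The means were 11.9 ± 3.98 in distal and 25.8 ± 11.8 in proximal (SD, n = 5 regions), from 37 and 253 counts. The authors' deposited table gave Gdf5 a log2 change of -1.07 ± 0.43 (SE), with a 95% interval of -1.90 to -0.23, an unadjusted p of 0.0121 and an adjusted p of 0.460. The pooled ratio of distal over proximal was 0.482, with an exact 95% interval of 0.332 to 0.683 for counting error alone. Without proximal region 5 the refitted log2 change of Gdf5 was -1.30, also short of the limit for a call. That refit kept the spread between regions estimated with proximal region 5 included. It therefore does not show whether a fresh fit would pass. The gene overlaps Gm15557, a coding gene on the opposite strand, and since the use of strand in counting is not given in the sources used here, reads of the pair cannot be told apart.

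Because Bmp2 and Gdf5 were counted in the same regions, their ratio within a region is free of the size factors; this ratio was chosen after the values were seen and is given without a test. It was 0.923, 1.5, 2.83, 1.5 and 3.5 Bmp2 counts per Gdf5 count in distal regions 1 to 5. The proximal regions held 0.582, 0.477, 0.433, 0.357 and 1.2. Over all counts of a side the ratio was 1.62 in distal and 0.490 in proximal. The sides overlapped at 1 region: proximal region 5 lay above distal region 1.

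**Figure D2:**
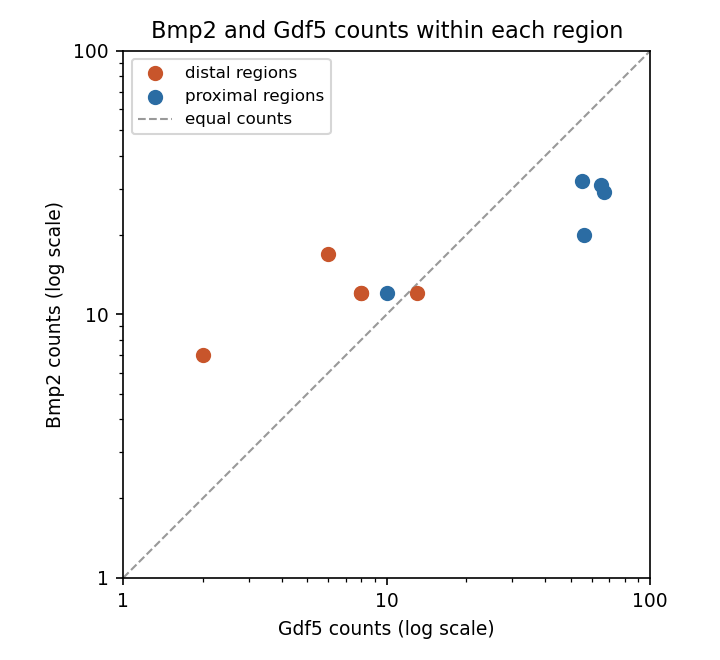
Bmp2 counts against Gdf5 counts (both axes logarithmic) in each distal and proximal region, with a dashed line where the counts are equal; distal regions 2 and 4 fall on the same point. Of the distal regions 4 lie above the line, and 4 proximal regions lie below it, at 55 to 67 Gdf5 counts.

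Bmp4 and Bmp7, the other measured ligands, spread as widely within a side as between the sides. Bmp4, expressed in early limb mesenchyme and ectoderm, lies at chr14:46383520-46390669 on the minus strand. Its normalized counts were 7.21, 0, 21.5, 5.88 and 21.3 in distal regions 1 to 5. The proximal regions held 9.10, 11.3, 20.4, 8.30 and 15.3. Distal regions 3 and 5 were above every proximal region and the other distal regions below every one, so the distal values surrounded the proximal ones. In the authors' deposited table the log2 change of Bmp4 was -0.31 ± 0.52 (SE), with a 95% interval of -1.33 to 0.71 and an adjusted p of 0.991. Without distal region 2, which had 0 counts, the refitted value was 0.06. Bmp4 overlaps Gm15217 and Gm15222 on the opposite strand, and reads of these genes cannot be told apart from its own without strand.

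Bmp7, a ligand of limb ectoderm and mesenchyme, lies at chr2:172868012-172940321 on the minus strand and was thinly covered, with 9 counts in distal and 40 in proximal. Its distal regions held 3.61, 2.86, 7.16, 0 and 0 normalized counts, and its proximal regions 4.96, 6.33, 3.07, 2.55 and 2.66. The highest region and the lowest regions were all distal. The authors' deposited table gave Bmp7 a log2 change of -0.42 ± 0.69 (SE), with a 95% interval of -1.77 to 0.94 and an adjusted p of 0.991. Without distal region 3 the refitted log2 change was -0.99. Bmp5, whose gene lies at chr9:75775364-75900310 on the plus strand, has no value.

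Of the 3 receptors, none was called. Bmpr1a, a type I receptor found throughout the limb mesenchyme, lies at chr14:34410734-34503341 on the minus strand and overlaps the antisense gene Gm17110, whose reads cannot be told apart without strand. Its normalized counts were 42.1, 28.6, 39.4, 33.3 and 21.3 in distal regions 1 to 5 and 40.1, 30.8, 37.8, 42.8 and 34.0 in proximal regions 1 to 5. The sides overlapped, with distal regions 2 and 5 below the lowest proximal region, distal region 5 from 7 counts. The authors' deposited table gave Bmpr1a a log2 change of -0.12 ± 0.21 (SE) and a 95% interval of -0.54 to 0.30, the narrowest of the 9 components. For Bmpr1a, the match of the counts to the deposited values was the least secure of the 7, with 0.165 sets expected to match by chance.

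Bmpr1b, the type I receptor of prechondrogenic condensations and the preferred receptor of Gdf5, lies at chr3:141837136-142169425 on the minus strand. It had 13.2, 5.73, 14.3, 27.4 and 0 normalized counts in distal regions 1 to 5 and 8.69, 8.14, 10.2, 5.74 and 5.99 in proximal regions 1 to 5. Distal regions 1, 3 and 4 lay above every proximal region, and distal regions 2 and 5 lay below every one. The means were 12.1 ± 10.3 in distal and 7.76 ± 1.89 in proximal (SD, n = 5 regions), from 37 and 77 counts. In the authors' deposited table the log2 change of Bmpr1b was 0.68 ± 0.44 (SE), with a 95% interval of -0.18 to 1.54 and an adjusted p of 0.991. The refitted log2 change was 0.22 without distal region 4, the highest, and 0.91 without distal region 5, which had 0 counts.

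Bmpr2, the type II receptor that binds most BMPs, lies at chr1:59763400-59879014 on the plus strand. Its counts in single regions could not be recovered, so only side means computed from the deposited mean and log2 change are given, 34.0 normalized counts in distal and 36.8 in proximal. The authors' deposited table gave Bmpr2 a log2 change of -0.11 ± 0.24 (SE), with a 95% interval of -0.59 to 0.36 and an adjusted p of 0.991. On the log2 scale the intervals of Bmpr1a and Bmpr2 leave out a change of 1 in either direction, while that of Bmpr1b does not. A same-strand gene model, Gm38125, overlaps Bmpr2, and how reads in the overlap were counted is not given in the sources used here.

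The antagonists had values on either side of 0. Grem1, gremlin, which sustains outgrowth by keeping BMPs in the distal limb bud in check, lies at chr2:113746164-113758646 on the minus strand. Its counts were 1, 0, 1, 0 and 0 in distal regions 1 to 5 and 13, 2, 15, 6 and 2 in proximal regions 1 to 5. In normalized counts this was 0 to 1.79 in distal, with a mean of 0.598, and 0.905 to 7.67 in proximal, with a mean of 3.82. Every proximal region held the transcript, but proximal regions 2 and 5 lay within the distal range. The pooled ratio of proximal over distal was 5.76 for Grem1, with an exact 95% interval of 1.49 to 49.3 for counting error alone, since distal had 2 counts. In the authors' deposited table Grem1 had a log2 change of -2.41 ± 1.12 (SE), with a 95% interval of -4.61 to -0.21, an unadjusted p of 0.0321 and an adjusted p of 0.755.

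Nog, noggin, which binds BMPs in condensing cartilage and is needed for joints to form, lies at chr11:89300638-89302332 on the minus strand. The computed side means of Nog were 36.7 normalized counts in distal and 32.2 in proximal, from about 107 and 311 counts. The authors' deposited table gave Nog a log2 change of 0.19 ± 0.36 (SE), with a 95% interval of -0.52 to 0.89 and an adjusted p of 0.991.

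**Figure D3:**
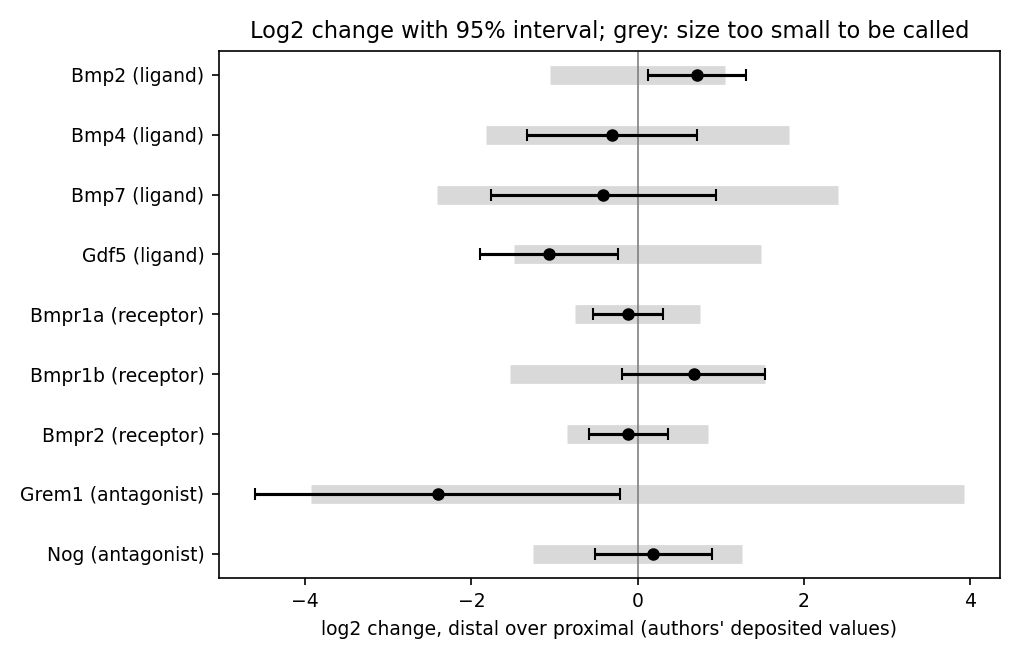
Log2 change of distal over proximal (horizontal axis, authors' deposited values) of the 9 components with a row, with 95% intervals; the grey band of each gene spans the changes too small to be called given its standard error. Every point lies inside its band, and the intervals of Bmp2, Gdf5 and Grem1 leave out 0.

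What could have been called differed among the components. The smallest absolute statistic (log2 change over standard error) among the 136 calls of the authors' deposited table was 3.50, so a component needed that many standard errors. For Bmpr1a this was a 1.68-fold difference, for Bmpr2 1.80-fold and for Bmp2 2.07-fold. For Nog it was 2.39-fold, for Gdf5 2.81-fold, for Bmpr1b 2.90-fold and for Bmp4 3.54-fold. For Bmp7 it was 5.34-fold and for Grem1 15.3-fold, so at these standard errors smaller differences would not have been called. A standard error depends on the counts observed, which for Grem1 were 2 in distal, and not on depth alone. Counting error made up 84.9% of the squared standard error of Grem1 and 64.3% of that of Bmp7. It made up 20.3% for Nog and 30.3% for Bmp4, where the remainder was spread between regions.

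Around these components, 78 of 89 listed symbols of other pathway genes had a row, in 5 lists. The 89 hold Zfp423 also under its other name Znf423. The authors' deposited table called 3 of them, Msx1 and Id3 as higher in distal and Smoc2 as higher in proximal. Over all genes 0.977% were called, 0.395% as higher in distal, and 3.03% of those with a mean of 10 or more, which Msx1, Id3 and Smoc2 have. Both genes that rose in distal are in the list of targets of BMP signalling, which has 15 genes. Msx1, a homeobox gene of undifferentiated limb mesenchyme, had computed side means of 166 normalized counts in distal and 76.1 in proximal and, in the authors' deposited table, a log2 change of 1.12 ± 0.17 (SE) at an adjusted p of 2.09e-08. Id3, an inhibitor of differentiation induced directly by Smads, had computed side means of 177 in distal and 130 in proximal. In the authors' deposited table its log2 change was 0.44 ± 0.12 (SE) at an adjusted p of 0.0345. With the log2 changes centred on the median of all genes, 0.07, Id3 was no longer called. With centring on the median of genes with a mean above the median, -0.02, Id3 was still called. The other Id genes, named after their values were seen, did not share its sign. Id2 had side means of 46.9 in distal and 68.1 in proximal and, in the authors' deposited table, a log2 change of -0.54 ± 0.21 (SE) at an unadjusted p of 0.0123 and an adjusted p of 0.460. The log2 changes of Id1 and Id4 per the authors' deposited table were -0.02 ± 0.19 and -0.59 ± 0.36 (SE), and that of Msx2 was 0.49 ± 0.24; none of these was called. Among the targets the log2 changes were positive for 8 and negative for 7, with a median of 0.05. Tbx3, a T-box gene of the limb margins, had a log2 change of the opposite sign, with 3 counts in distal and 57 in proximal and a pooled proximal over distal ratio of 5.76 (exact 95% interval 1.88 to 28.8, counting error only). Its regions did not overlap, at 0 to 2.40 against 3.17 to 10.7 normalized counts, but the authors' deposited table gave it an adjusted p of 0.365.

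The other secreted antagonists and modulators had 21 of 23 genes in the table and a median log2 change of -0.57, with 15 negative and 6 positive; 12 of them stood at 3 counts or fewer on a side. Smoc2, a matrix protein that modulates BMP signalling, was the only gene of the list that was called, with computed totals of 3.97 counts in distal and 268 in proximal and a log2 change of -4.36 ± 0.75 (SE) (adjusted p of 3.05e-06 per the authors' deposited table). Fst, follistatin, which binds activins and some BMPs, had 0 to 1.43 normalized counts in the distal regions and 1.53 to 9.10 in the proximal regions. Its 1 distal count against 54 gave a pooled proximal over distal ratio of 16.4 (exact 95% interval 2.82 to 659, counting error only), and the authors' deposited table gave it an adjusted p of 0.116. Htra1, a secreted protease, had 0 counts in distal and 26 in proximal, at least 2.63-fold lower in distal with the distal total held at 3 counts; the authors' deposited table gave an adjusted p of 0.420. The sides of Fst and of Htra1 did not overlap, yet neither passed the test, which 0.977% of all genes did. How often the sides of a gene do not overlap is not known over all genes.

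The other ligands were scarce: 7 of 15 had a row, 5 of these at 3 counts or fewer on a side, and none was called. Gdf6, the close relative of Gdf5 in joints, had 1 count in distal and 28 in proximal (pooled proximal over distal ratio 8.49, exact 95% interval 1.40 to 347, counting error only), and the authors' deposited table gave it an adjusted p of 0.730. Gdf10 had 42 and 178 counts and Gdf11 15 and 43, for which the authors' deposited table gave log2 changes of -0.34 ± 0.39 and 0.20 ± 0.55 (SE).

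All 13 other receptors and co-receptors had a row, with a median log2 change of -0.30 and none called. Acvr1b, an activin type I receptor, had 13 counts in distal and 93 in proximal, and Acvr1, a BMP type I receptor, 24 and 133. Their log2 changes per the authors' deposited table were -1.13 ± 0.52 and -0.72 ± 0.40 (SE), at adjusted p of 0.730 and 0.991. Rgmb, a BMP co-receptor, had 34 and 71 counts and, in the authors' deposited table, a log2 change of 0.64 ± 0.43 (SE) at an adjusted p of 0.991.

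Of the intracellular transducers and regulators, 22 of 23 listed symbols had a row. The symbol without a row, Znf423, is another name of Zfp423, which had one. The 22 rows divided into 11 positive and 11 negative log2 changes, with a median of -0.00 and no call. Smad4, the shared partner of the receptor-activated Smads, was given a log2 change of 0.41 ± 0.20 (SE), with an adjusted p of 0.869, by the authors' deposited table. Tob1, an antiproliferative protein that represses Smad activity, had 4.81 to 11.8 normalized counts in distal and 11.8 to 18.5 in proximal. For Tob1 the authors' deposited table gave a log2 change of -0.83 ± 0.38 (SE) and an adjusted p of 0.731. Zeb2, a Smad-binding repressor, had 9 and 104 counts, and the authors' deposited table gave it an adjusted p of 0.620.

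**Figure D4:**
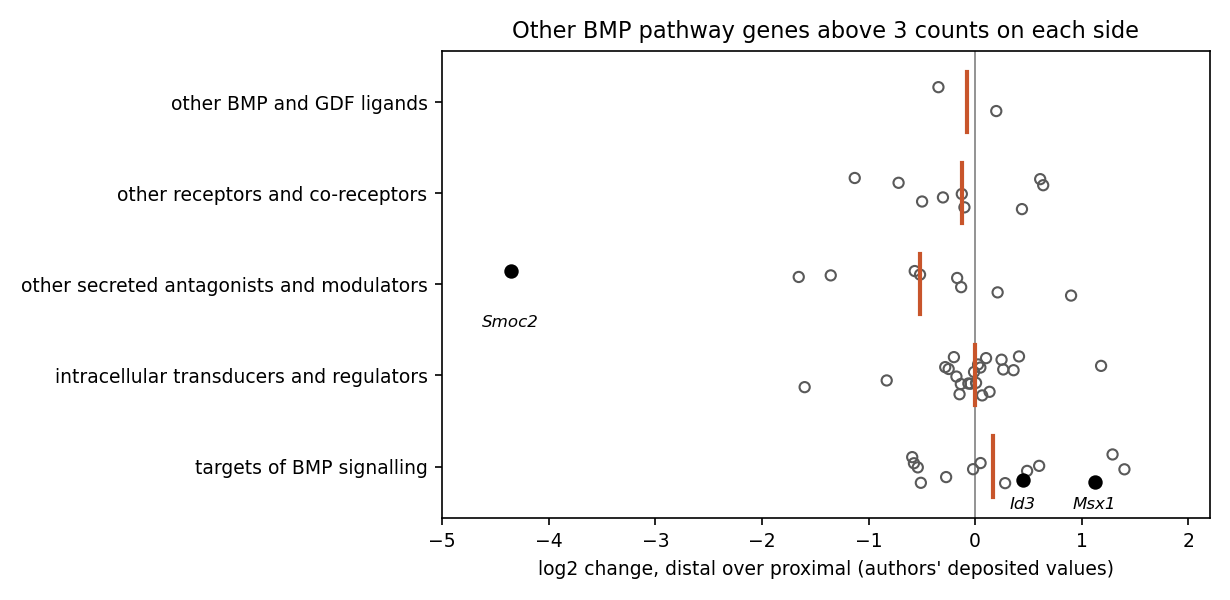
Log2 change of distal over proximal (horizontal axis, authors' deposited values) of the other pathway genes with more than 3 counts on each side, by list; filled points are called at an adjusted p under 0.05, open points are not, and orange bars are medians of the points shown. The filled points are Msx1 and Id3 to the right of 0 and Smoc2 at -4.36, and the transducers centre on 0.

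Of the markers of other cell types, those of joint interzone and skeletal muscle mostly had their higher values in proximal, as Gdf5 and Grem1 did. Those of endothelium and blood, 7 of 15 with a row, had 3 positive and 4 negative log2 changes and no call. All 7 stood at 3 counts or fewer on a side. Of 11 joint interzone markers, which include Gdf6 but not Gdf5, the authors' deposited table called 5 as higher in proximal, Wnt4, Sfrp2, Osr2, Col3a1 and Jun, and none as higher in distal. The list's median log2 change was -1.62. Over its 8 markers with recovered counts, the sum was 17.9 to 31.5 normalized counts in distal and 58.7 to 89.6 in proximal regions. Wnt9a had 0 counts in distal and 14 in proximal. Osr1 was the only marker of that list above 0, with a log2 change of 1.15 from the authors' deposited table. Their part in the values of Gdf5 was not tested.

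Skeletal muscle markers, 13 of 14 with a row, were likewise mostly proximal, with 5 called higher there (Myog, Actc1, Acta1, Myl1 and Tnnt1) in the authors' deposited table. Over 11 with recovered counts the sum was 0 to 8.59 normalized counts in the distal and 25.5 to 56.1 in the proximal regions. Myf5, Pax3, Pax7, Tnnt2, Tnni1 and Des were at 0 in distal. In proximal, the deeper side, they had 27, 19, 2, 17, 12 and 9 counts. With the distal total held at 3 counts, Pax7 and Des were not lower in distal. Their part in the values of Gdf5, Grem1 and the other pathway genes with higher proximal values was not tested. In the cartilage condensation list, 15 of 18 had a row, 6 with a positive and 9 with a negative log2 change and a median of -0.07. Sox9 was the only one called, as higher in distal, with 842 against 522 normalized counts as computed side means. The authors' deposited table gave an unadjusted p under 0.05, without a call, to Matn3, with a log2 change of 1.47, and to Col9a2 and Acan, with log2 changes of -0.73 and -1.57. The part of cartilage cells in the values of Bmp2 and Bmpr1b was not tested.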

How the data were processed

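The authors deposited 1 comparison of the 5 distal with the 5 proximal regions, 1 row per protein-coding gene, with, per the file headers, the layout that DESeq2 writes. The mean is a signal, the authors' average of normalized counts over all regions. The authors fitted the log2 change and gave its standard error. The statistic is a score, the deposited log2 change over its standard error, to within 1.91e-06. The p-value and its adjusted form were deposited by the authors. The submitters' processing notes name the builds mm10 and GRCm38; the aligner, the counting and the annotation are not given in the sources used here.

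Size factors of the 10 regions were read from the lowest means, which repeat on steps of 1 count shared by at least 20 genes; 1510 of 1523 distinct low means then had 1 matching set of counts. Whether a region was distal or proximal followed from the direction in which the deposited log2 change moved with its counts. Counts in single regions were recovered as the whole numbers that give the deposited mean (to 5.5e-09, or 1.2e-09 under a mean of 10) and, through a negative binomial fit with fitted means of at least 0.5, the deposited log2 change (to 1e-09) and standard error. They were accepted where 1 set matched and under 0.2 were expected by chance. This held for 7 of 9 components and 109 of 148 genes of all lists. For most components the search was limited to counts near the side means, and sets further out were not examined. The limit was about 4 SD for Bmp2, Bmp4, Bmp7 and Bmpr1b, 3 SD for Gdf5 and 2.5 SD for Bmpr1a. On data simulated with the same fit, 43 of 44 genes had 1 accepted set, and all 43 sets equalled the simulated counts. That tests the search and not whether the authors' fit was the same. Among the listed genes, Smoc2 and Myl1 were searched and gave 0 matching sets. Where no counts were recovered, side means were computed from the mean and log2 change. Normalized counts are counts over size factors. Intervals of log2 changes are Wald intervals, and those of pooled ratios are exact for counts; the latter and the floor of 3 counts cover counting error only.

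A call is a deposited adjusted p under 0.05; no new count test across genes was run, because most genes have no recovered counts. Named are all components and, in each of 5 pathway lists, every called gene and the 3 genes of smallest deposited p with a mean of at least 1; markers and other Id and Msx genes named beside them were chosen after their values were seen. The components and lists were chosen with earlier results of these data known. Positions are from GENCODE M21, whose IDs and chromosomes match the table for 9 of 9 components; by BLAST 2.17.0 on the last 300 bases, 0 components had a near-identical copy. Thresholds, centring, low-value filters, region weights and leaving out regions were tried as alternatives. Scripts used python 3.11.15, numpy 2.4.6 and scipy 1.17.1.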

Additional observations from a re-analysis of the deposited data

Results flagged for a closer look

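In the components and the named pathway genes, 35 sets of 5 regions of 1 side were looked at for a region far from the others, and 4 had one. Chance gives about 1 in 20 for normally distributed values. A side with a single count is always flagged, as for Gdf6 and Fst below, so the 4 cannot be set against that rate. Gdf10 had 28.6 normalized counts in proximal region 3, where the next highest proximal region had 17.2. Zeb2 had 18.3 normalized counts in distal region 5 and 3.61 in the next. Gdf6 had 1.79 normalized counts in distal region 3 and Fst 1.43 in distal region 2, each from 1 count where the other distal regions had 0. None of the 4 genes was among the 10 components.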

How the results depend on the processing

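No BMP component was called under any of the 7 alternatives tried for the threshold, the adjustment, the centring and the size of change. The calls over all genes ranged from 89 to 161. An adjusted p under 0.01 and the required size of change can only remove calls, so their count of 0 components was fixed in advance. The pathway calls numbered 3 or 2. Id3 was lost at an adjusted p under 0.01 and with an absolute log2 change of at least 1 required. Subtracting the median of all genes also lost Id3. Subtracting that of genes with a mean above the median did not. Of 95 alternative log2 changes of single components, 94 kept their direction, and no refit without a region passed the limit for a call; Bmp4 without distal region 2 turned to 0.057, from -0.31, in a fit of fewer regions. The cause was not tested. Leaving out 1 region at a time gave log2 changes of 0.54 to 0.86 for Bmp2, -1.30 to -0.93 for Gdf5, -2.83 to -1.99 for Grem1, 0.22 to 0.91 for Bmpr1b, -0.99 to -0.13 for Bmp7, -0.79 to 0.06 for Bmp4 and -0.24 to -0.04 for Bmpr1a. The unadjusted p stayed under 0.05 in 10 of 10 such fits for Gdf5, 8 for Bmp2 and 5 for Grem1, and for Bmpr1b it passed in 1. All refits without a region kept the size factors and the spread between regions from the fit of all regions. Neither these p-values nor the distance from the limit for a call is a fresh test. Bmpr2 and Nog have no such values, nor a weighted ratio, without region counts, and a pseudocount does not apply to a deposited log2 change. No paired analysis was possible because each side is 1 library and no label pairs the regions. Among the components, Grem1 and Bmp7 had the fewest counts in distal, 2 and 9. How far depth rather than level set these counts was not tested.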

Other observations

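Bmp4 and Gdf10, a pair noticed after the values were seen, both had their highest value of each side in region 3: 21.5 and 20.4 normalized counts for Bmp4 and 32.2 and 28.6 for Gdf10 in distal and proximal. Distal region 5, the shallowest, was second for Bmp4 at 21.3 but not for Gdf10, at 12.2. Region numbers are ranks of depth within a side, so region 3 of distal and region 3 of proximal have no known link. No test was made of the shared rank.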
